A study of Arabidopsis thaliana with 8 samples.

Results

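Calmodulin-like (CML) proteins are small calcium sensors. Calcium that enters the cytosol on wounding, touch, pathogen attack or hormone treatment is bound by the EF hands of calmodulins, CML proteins and calcineurin B-like (CBL) proteins, which pass the signal to their targets. Calcium-dependent kinases (CPK or CDPK) carry the sensor and the kinase in one protein, whereas CIPK kinases are switched on by CBL sensors. In wounded leaves, calcium signals and jasmonate production are known to accompany each other, and *CML37* and *CML42* are known for opposite parts in jasmonate-dependent defense against chewing insects.

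The genes were chosen by symbol, as every probe set paired with 1 gene named CML, CAM, CPK, CDPK, CBL or CIPK with a number. This gave 7 of the 13286 named genes, and all of them were calmodulin-like: *CML23*, *CML30*, *CML37*, *CML38*, *CML41*, *CML42* and *CML43*. RefSeq lists 8 symbols of the CML type, 9 of CAM, 29 of CPK, 5 of CDPK, 9 of CBL and 21 of CIPK. The other genes with these symbols were not named by the array annotation used here and were not analysed. These counts are of symbols and not of family sizes, as a gene that RefSeq lists under another symbol is not counted. The measured genes are therefore calcium sensors, and no calcium-dependent kinase is described. CRK symbols, which name CDPK-related kinases as well as cysteine-rich receptor kinases, were left out because no description separated them, and 0 named probe sets carried one. An eighth gene, AT1G76640, has no family symbol but the RefSeq synonym *CML39*, which RefSeq also lists for *CML37*. It is shown beside the others and was not counted among the 7.

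Whole seedlings of *hy5-1*, a mutant of the bZIP transcription factor gene *HY5* in the *Ler* background, and of wild-type *Ler* were collected at an age of 4 days, after growth in continuous FR light (1.5 μmol m-2 s-1) or without light. The medium held 50 μM or 0 μM methyl jasmonate (MeJA), and 1 Affymetrix ATH1 array was run for each of the 8 combinations. With 1 array a condition, the ratios have no replicate check and the precision is limited by the number of arrays. The deposited log values were taken as base 2, which the sources used here do not state. In them the median of every probe set over the 4 arrays of a light is 0. Neither a transcript's level nor its difference between FR light and darkness can therefore be read from them. A value of 0 is the middle of the 4 arrays, and the 2 middle arrays are equal in size and opposite in sign by construction. None of the 8 genes had equal values on 2 arrays of a light, as a lower limit on signals could leave. Up-regulation means a log2 ratio of 1 or more (2-fold), and down-regulation one of -1 or less (0.5-fold). RNA came from whole seedlings, in which fewer cells of a type and less RNA per cell cannot be told apart.

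As a check of the labels, the thionin gene *THI2.1* and the jasmonate biosynthesis gene *OPCL1* were higher with MeJA in each of the 4 pairs of arrays, with log2 ratios from 4.58 to 8.51 and from 1.24 to 2.83. The *HY5* homolog gene *HYH* was lower in *hy5-1* in each of 4 pairs, by far more in darkness than under FR light. Its log2 ratios were -5.26 with MeJA and -5.98 without it in darkness. Under FR light they were -1.30 with MeJA and -0.92 without it, the latter short of 2-fold. No probe set was paired with *HY5* itself.

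MeJA was followed by higher transcript levels of *CML43* in both genotypes and both lights, and of *CML38* at 2-fold in each pair but *Ler* under FR light. *CML41* was up-regulated in dark-grown *hy5-1* alone, and *CML23*, *CML30*, *CML37* and *CML42* stayed under 2-fold throughout. None of the 7 genes was down-regulated by MeJA at 2-fold in any pair. Among the 28 MeJA ratios of the 7 genes, 8 reached 2-fold in either direction (28.6%), against 25.3% of the MeJA ratios of all 22746 probe sets. The share of ratios past 2-fold was thus near that of the whole array when both directions were counted. These 8 ratios came from *CML38*, *CML41* and *CML43* and were all above 0. Ratios of the same gene are no separate observations, so no direction is read for the 7 genes as a set. With 7 genes and no test over them, the description below concerns single genes. In *hy5-1* 2 of 7 genes were up-regulated under FR light, where 11.2% of all probe sets were, and 3 of 7 in darkness, where 12.2% were. In *Ler* 1 of 7 was up-regulated under FR light, against 12.8% of all probe sets, and 2 of 7 in darkness, against 11.2%. Down-regulation by MeJA was found for 13.4% of all probe sets in *hy5-1* and 11.2% in *Ler* under FR light, and for 16.1% and 13.1% in darkness.

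**Figure D1:**
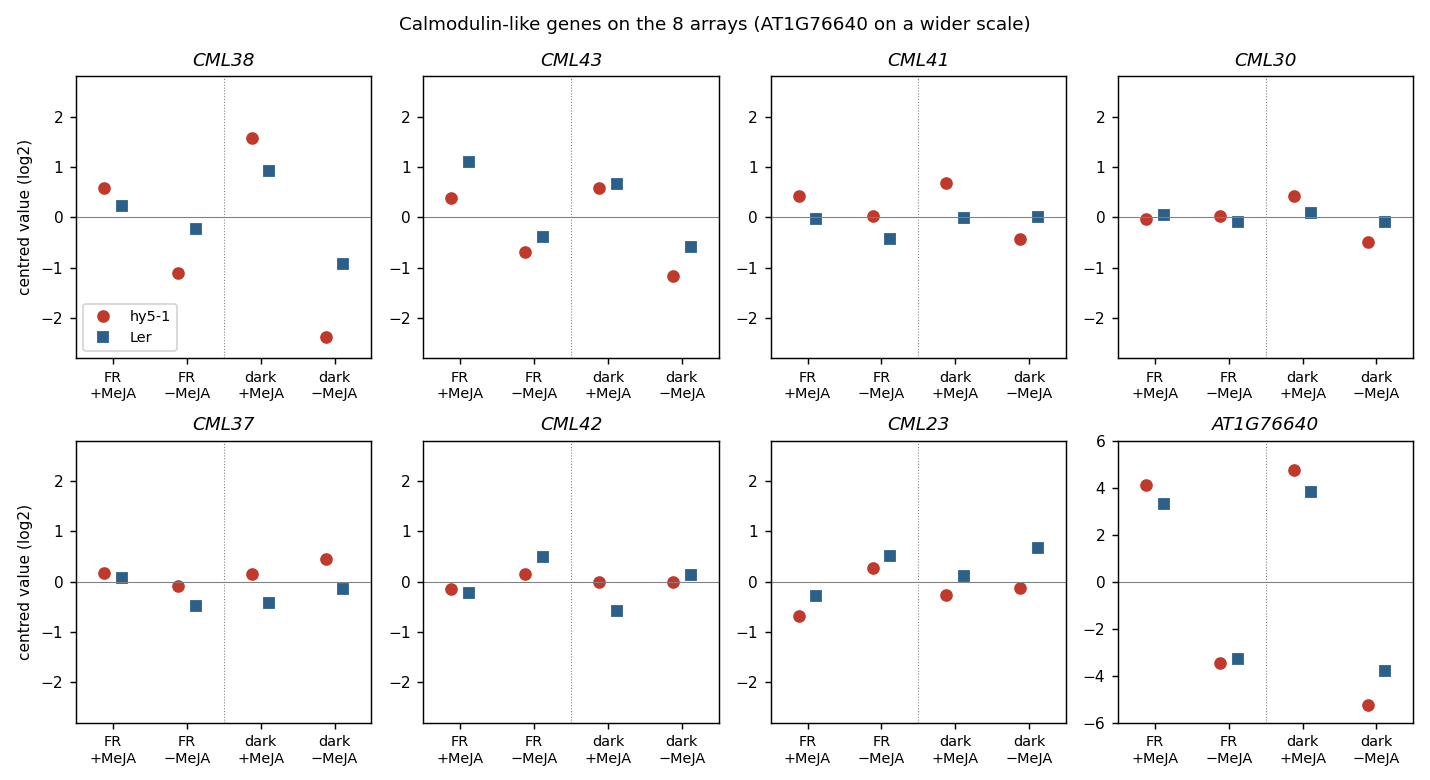
Centred log2 values of the 7 calmodulin-like genes and of AT1G76640 on the 8 arrays, 1 point for each array, with *hy5-1* as circles and *Ler* as squares. The dotted line parts FR light from darkness, which were centred separately, and AT1G76640 is drawn on a wider scale. Treated and untreated arrays do not overlap in either light for *CML38*, *CML43* and AT1G76640, which are higher with MeJA. The same holds for *CML42*, which is lower with a gap in darkness of only 0.01 on the log2 scale. How many of all probe sets show no overlap was not counted.

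*CML43*, a gene of the root tip that is known for a part in the hypersensitive response to pathogens, had the steadiest response. Under FR light its centred log2 values were 0.39 in *hy5-1* and 1.11 in *Ler* with MeJA, against -0.68 in *hy5-1* and -0.39 in *Ler* without it. In darkness the values were 0.58 in *hy5-1* and 0.67 in *Ler* with MeJA, against -1.16 in *hy5-1* and -0.58 in *Ler* without it. The treated arrays were higher than the untreated ones in both lights, without overlap, a pattern that was not counted over all probe sets. The log2 ratios of MeJA to no MeJA were 1.06 in *hy5-1* and 1.49 in *Ler* under FR light, and 1.74 in *hy5-1* and 1.25 in *Ler* in darkness. All 4 ratios were past 2-fold, as they were for 551 probe sets (2.42% of all). In a limma model that treats each of the 4 pairs as a block, *CML43* rose with MeJA by a mean log2 ratio of 1.39, a fold of 2.62 (standard error 0.17, adjusted p = 0.0285, higher in 4 of 4 pairs). It was the only one of the 7 genes to pass that model, in which 2.70% of all probe sets passed as higher and 1.68% as lower. With 1 pair left out, its mean ratio lay between 1.27 and 1.50, with adjusted p from 0.101 to 0.122, which no longer passed, on fewer residual degrees of freedom.

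*CML38* encodes a calcium sensor known for its strong induction by wounding and by low oxygen, where the protein joins RNA granules. Under FR light its centred values were 0.59 in *hy5-1* and 0.23 in *Ler* with MeJA, against -1.11 in *hy5-1* and -0.23 in *Ler* without it. In darkness they were 1.59 in *hy5-1* and 0.92 in *Ler* with MeJA, against -2.38 in *hy5-1* and -0.92 in *Ler* without it. The untreated *hy5-1* array was the lowest and the treated *hy5-1* array the highest of the 4 in each light. The log2 ratio of MeJA to no MeJA was 1.70 in *hy5-1* and 0.46 in *Ler* under FR light, and 3.97 in *hy5-1* and 1.84 in *Ler* in darkness. The ratio in dark-grown *hy5-1*, a fold of 15.7, was the largest of the 7 genes and held rank 179 among all 22746 probe sets of that pair. Because the 4 ratios differed widely, the mean of 1.99 had a large error and did not pass in limma (standard error 0.60, adjusted p = 0.145, higher in 4 of 4 pairs).

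**Figure D2:**
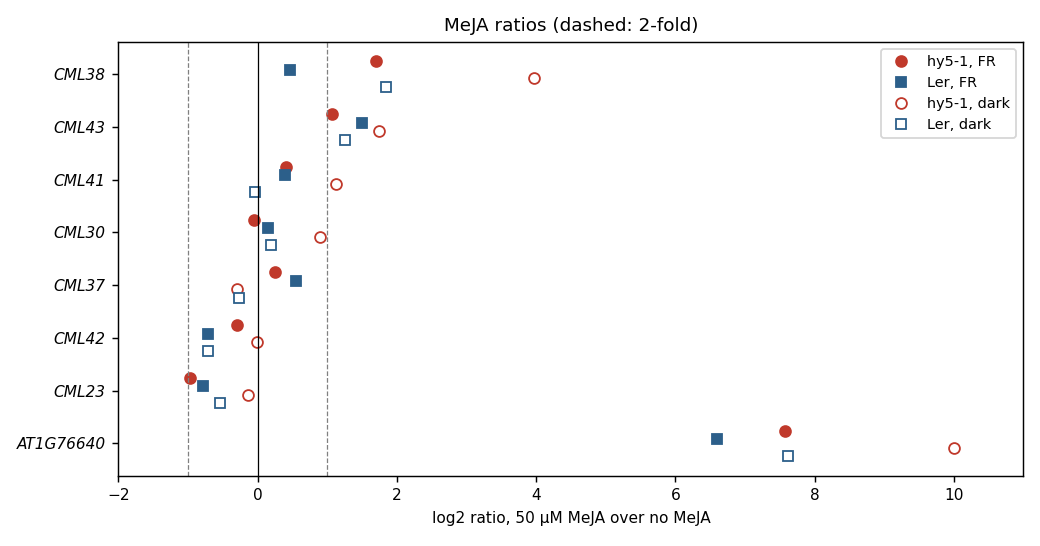
Log2 ratios of 50 μM MeJA to no MeJA for the 7 calmodulin-like genes and AT1G76640, with 1 point for each of the 4 pairs of arrays, *hy5-1* as circles, *Ler* as squares, FR light filled and darkness open. The dashed lines mark 2-fold. *CML43* lies between 1.06 and 1.74, whereas *CML38* runs from 0.46 to 3.97 and AT1G76640 from 6.59 to 10.00.

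AT1G76640, listed with the synonym *CML39* and known under that name for a part in early seedling establishment, is the next gene to *CML38* on chromosome 1. It had one of the strongest MeJA responses on the arrays. Under FR light its centred values were 4.14 in *hy5-1* and 3.30 in *Ler* with MeJA, against -3.44 in *hy5-1* and -3.30 in *Ler* without it. In darkness they were 4.75 in *hy5-1* and 3.81 in *Ler* with MeJA, against -5.25 in *hy5-1* and -3.81 in *Ler* without it. The treated and untreated arrays were thus far apart in both genotypes. The log2 ratios of MeJA to no MeJA were 7.58 in *hy5-1* and 6.59 in *Ler* under FR light, and 10.00 in *hy5-1* and 7.61 in *Ler* in darkness. These held ranks 13, 20, 4 and 12 among all probe sets of their pairs. In limma AT1G76640 rose with MeJA by a mean log2 ratio of 7.95, a fold of 246.5 and rank 8 of 22746 (standard error 0.60, adjusted p = 0.0114, higher in 4 of 4 pairs). Because the untreated values are centred and no signal level is known, it cannot be told how dim the untreated signals were, and the fold depends on them. With 1 pair left out, its mean ratio lay between 7.26 and 8.40, with adjusted p from 0.0529 to 0.0753, which no longer passed.

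The genes on either side of this pair stayed under 2-fold in each of the 4 pairs of arrays. AT1G76630, next to AT1G76640, had MeJA ratios of -0.70 in *hy5-1* and -0.45 in *Ler* under FR light, and of -0.24 in *hy5-1* and 0.22 in *Ler* in darkness. AT1G76660, next to *CML38*, had ratios between 0.01 and 0.34 in the 4 pairs. The flanking genes were picked by position, after the values of *CML38* had been seen.

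*CML41*, whose protein is known to act at plasmodesmata in defense against bacteria, had a log2 ratio of MeJA to no MeJA of 1.12 in dark-grown *hy5-1*, against -0.04 in dark-grown *Ler*. Under FR light its ratio was 0.40 in both genotypes. The dark *hy5-1* ratio was set by a treated value of 0.69 and an untreated value of -0.43, the highest and the lowest of the 4 dark arrays, with the *Ler* values of -0.02 and 0.02 between them. *CML30* had its largest ratio in the same pair, at 0.90 in dark-grown *hy5-1*, against 0.19 in dark-grown *Ler*. Its ratios under FR light were -0.06 in *hy5-1* and 0.15 in *Ler*. Neither gene passed in limma over the 4 pairs, with mean log2 ratios of 0.47 for *CML41* (standard error 0.23, adjusted p = 0.294) and 0.30 for *CML30* (standard error 0.21, adjusted p = 0.448).

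The measured genes known for jasmonate-dependent defense had small MeJA ratios. *CML42*, a negative regulator of that defense that also acts in trichome branching, had log2 ratios of -0.29 in *hy5-1* and -0.72 in *Ler* under FR light, and of -0.01 in *hy5-1* and -0.71 in *Ler* in darkness. It was lower with MeJA in 4 of 4 pairs, but the dark *hy5-1* ratio became positive, at 0.04 to 0.05, under other scalings, and the mean of -0.43 did not pass in limma (standard error 0.19, adjusted p = 0.251). *CML37*, a positive regulator, had centred values under FR light of 0.17 in *hy5-1* and 0.08 in *Ler* with MeJA, against -0.08 in *hy5-1* and -0.47 in *Ler* without it. In darkness its values were 0.15 in *hy5-1* and -0.42 in *Ler* with MeJA, against 0.44 in *hy5-1* and -0.15 in *Ler* without it. Its ratios were thus above 0 under FR light, at 0.25 in *hy5-1* and 0.55 in *Ler*, and below 0 in darkness, at -0.30 in *hy5-1* and -0.27 in *Ler*. Their mean was 0.06 in limma (standard error 0.21, adjusted p = 0.894).

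*CML23*, which acts with its close homolog *CML24* in the timing of flowering, was the gene with the lowest mean MeJA ratio. Under FR light its centred values were -0.69 in *hy5-1* and -0.28 in *Ler* with MeJA, against 0.28 in *hy5-1* and 0.51 in *Ler* without it. In darkness they were -0.26 in *hy5-1* and 0.12 in *Ler* with MeJA, against -0.12 in *hy5-1* and 0.66 in *Ler* without it. The treated arrays lay below the untreated ones under FR light, but the groups overlapped in darkness. The log2 ratios were -0.97 in *hy5-1* and -0.78 in *Ler* under FR light, and -0.14 in *hy5-1* and -0.54 in *Ler* in darkness. The mean of -0.61, a fold of 0.656, did not pass in limma (standard error 0.19, adjusted p = 0.153, lower in 4 of 4 pairs).

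**Figure D3:**
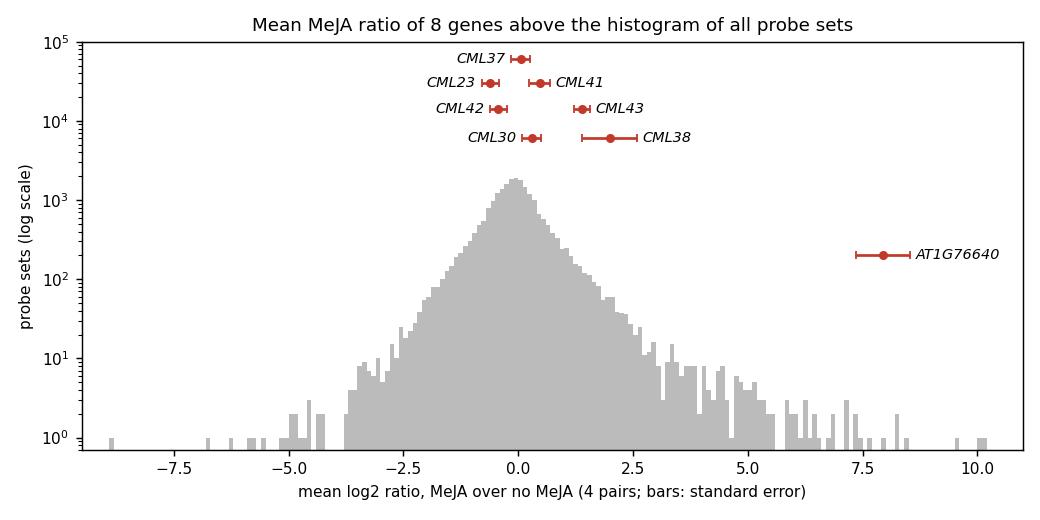
Mean log2 ratio of MeJA to no MeJA over the 4 pairs, for the 7 calmodulin-like genes and AT1G76640 (points with standard errors from limma, set at heights chosen for legibility) above a histogram of all 22746 probe sets (grey, log scale). The 7 genes lie between -0.61 and 1.99, and AT1G76640 at 7.95 stands in the far upper tail.

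Between the genotypes, 1 of the 28 ratios of *hy5-1* to *Ler* reached 2-fold (3.57%), against 17.1% of those of all probe sets. Of all probe sets, 8.92% were higher and 9.09% lower at 2-fold in *hy5-1* than in *Ler* with MeJA under FR light, without MeJA under FR light 9.19% and 6.85%, with MeJA in darkness 9.00% and 8.06%, and without MeJA in darkness 9.64% and 7.68%. The 1 ratio at 2-fold was *CML38* in untreated dark seedlings, which was lower in *hy5-1* at a log2 ratio of -1.46. In that comparison 6 of the 7 genes were lower in *hy5-1*, with a median log2 ratio of -0.44, against 0.01 over all probe sets, and *CML37* was higher at 0.59. With MeJA in darkness 5 of 7 were higher in *hy5-1*, with a median of 0.57, against -0.00 over all probe sets. These 2 comparisons share no array, but each rests on 1 pair, and the 7 genes are no replicates of a condition. The share of all probe sets on each side of 0 was not counted. Under FR light the medians of the 7 genes were 0.07 with MeJA and -0.23 without it.

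The genotype ratio of *CML38* changed its sign with MeJA in both lights. It was 0.36 with MeJA and -0.88 without it under FR light, and 0.66 with MeJA and -1.46 without it in darkness. AT1G76640 had ratios of 0.84 with MeJA and -0.14 without it under FR light, and of 0.94 with MeJA and -1.44 without it in darkness. Such a change, from below *Ler* without MeJA to above it with MeJA in both lights, was found for 1410 probe sets (6.20% of all) and for 2 of the 7 genes, *CML38* and *CML42*. In limma on the 4 MeJA ratios, the MeJA ratio of *CML38* was larger in *hy5-1* than in *Ler* by 1.68 (standard error 0.39, adjusted p = 0.762), and that of AT1G76640 by 1.68 (standard error 0.52, adjusted p = 0.808). Neither difference passed, in a model with 1 residual degree of freedom that called 0 probe sets, with 1442 at an unadjusted p under 0.05. The larger MeJA ratios of *CML38* and AT1G76640 in darkness than under FR light were also not past the threshold. The difference of FR light and darkness was -1.83 for *CML38* (standard error 0.39, adjusted p = 0.622) and -1.72 for AT1G76640 (standard error 0.52, adjusted p = 0.643) in limma, where 0 probe sets were called and 1789 had an unadjusted p under 0.05.

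**Figure D4:**
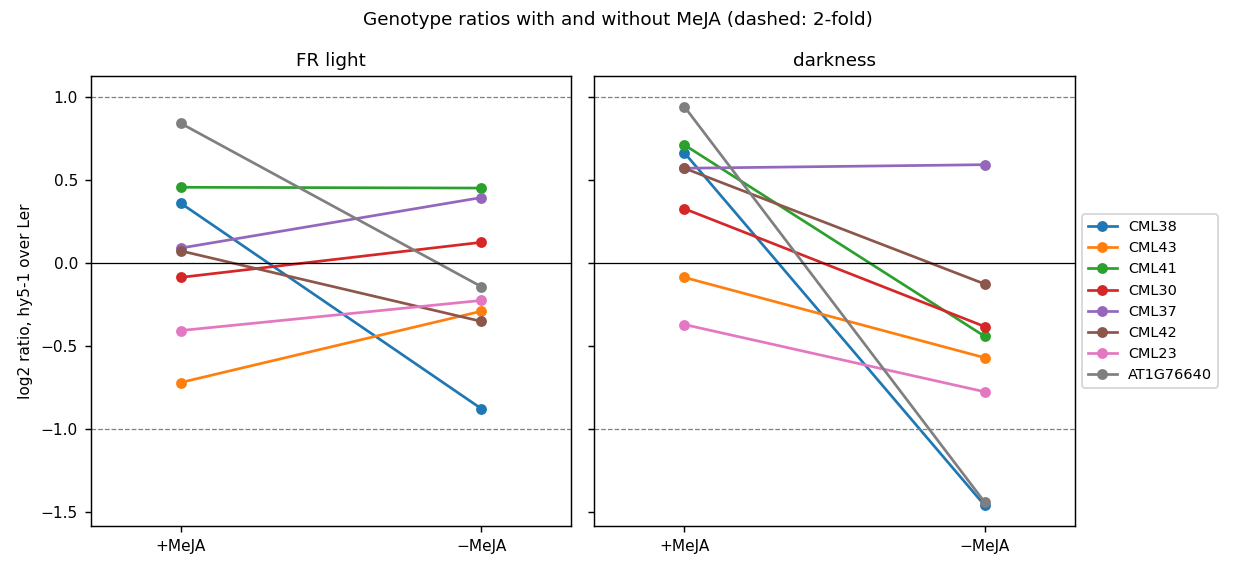
Log2 ratios of *hy5-1* to *Ler* for the 7 calmodulin-like genes and AT1G76640, with MeJA (left) and without it (right), under FR light and in darkness, each point from 1 pair of arrays. The dashed lines mark 2-fold, which only *CML38* at -1.46 and AT1G76640 at -1.44 passed, both in untreated dark seedlings.

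*CML23*, *CML43* and *CML37* had the same sign of the genotype ratio in each of the 4 comparisons, though none reached 2-fold. How many of all probe sets keep 1 sign in this way was not counted, so the pattern has no background to be read against. *CML23* was lower in *hy5-1*, with log2 ratios of -0.41 with MeJA and -0.23 without it under FR light, and of -0.37 with MeJA and -0.78 without it in darkness. *CML43* was lower as well, with ratios of -0.72 with MeJA and -0.29 without it under FR light, and of -0.09 with MeJA and -0.57 without it in darkness. *CML37* was higher in *hy5-1*, with ratios of 0.09 with MeJA and 0.39 without it under FR light, and of 0.57 with MeJA and 0.59 without it in darkness. Over the 4 pairs limma gave means of -0.45 for *CML23* (standard error 0.14, adjusted p = 0.715), -0.42 for *CML43* (standard error 0.16, adjusted p = 0.723) and 0.41 for *CML37* (standard error 0.14, adjusted p = 0.723). The unadjusted p values of these 3 genes were 0.0297, 0.0491 and 0.0382, and the model called 0 of all probe sets, with 1553 at an unadjusted p under 0.05. The genotype ratios of *CML30*, *CML41* and *CML42* ran from -0.44 to 0.71.

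Other genes of calcium signaling could be followed in part. Of 18 glutamate receptor-like channel genes in RefSeq, 7 were named by the array annotation used here, and *GLR3.3*, which is needed for the electrical and calcium signals that travel from a wound, rose with MeJA in limma (mean log2 ratio 0.86, standard error 0.13, adjusted p = 0.0404). Its ratios were 0.79 in *hy5-1* and 0.92 in *Ler* under FR light, and 0.91 in *hy5-1* and 0.82 in *Ler* in darkness, all short of 2-fold. *GLR3.5*, the member with the largest mean of 0.94, did not pass (adjusted p = 0.168). Of 24 IQD genes, which encode calmodulin-binding proteins, 11 were named there, and *IQD22* rose with MeJA (mean 1.05, standard error 0.15, adjusted p = 0.0399). *IQD16* had the next largest mean in size, -0.82, and did not pass (adjusted p = 0.195). None of these 18 genes passed as lower with MeJA. Of all probe sets, 2.70% passed as higher and 1.68% as lower. With the *hy5-1* FR, the *Ler* dark or the *hy5-1* dark pair left out, the model called 0 probe sets, so *GLR3.3* and *IQD22* did not pass there. Without the *Ler* FR pair it called 34. No member of the other lists (cyclic nucleotide-gated channels, calcium pumps and exchangers, calmodulin-binding transcription factors and targets of the kinases) was named by the array annotation used here, which leaves 8730 probe sets unlisted, so those genes were not analysed here.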

How the data were processed

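Affymetrix ATH1 arrays of 8 conditions were used, 1 for each. The authors deposited log2 values, summarised with MAS5 (version not given in the sources used here) according to the submitters' processing notes and normalized with GeneSpring GX according to the methods. Neither the scaling between arrays nor the log base is stated there. Base 2 was taken. Centring on the median of the 4 arrays of a light was found in the values. Of 22810 probe sets, 64 controls were left out. Of the remaining 22746, the array annotation paired 13436 with 1 gene, whose symbol was then taken from RefSeq (TAIR10.1) by its gene identifier, and 503 with several genes. A further 77 had a symbol without a RefSeq entry, and 8730 were not listed. The probe sets of several genes held none whose genes were all of these families.

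Ratios were computed as differences of log2 values within a light. Limma 3.58.1 in R 4.3.3 was run with a block for each pair (3 residual degrees of freedom) for MeJA and for genotype, and on the 4 MeJA ratios for differences between genotypes or lights, using moderated variances (empirical Bayes) and the Benjamini-Hochberg adjustment over all 22746 probe sets at 0.05. The fits were checked on simulated data. The genes and lists were chosen with earlier results of these data known. All 7 genes are named. Values on every array were given for those past 2-fold in at least 3 of 8 ratios or among the 3 largest mean MeJA or genotype ratios, and, of each related list, the 2 genes with the largest mean MeJA ratio were named. Motif searches had been planned and were not run, as no sequences were used here. Arrays were not replicated, so p-values measure the spread between the 4 pairs. Alternatives were quantile normalization within a light, median scaling, other fold thresholds, other readings of the symbols, a variance trend and leaving out each pair.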

Additional observations from a re-analysis of the deposited data

Results flagged for a closer look

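In 4 cases both pairs of one condition moved one way and both pairs of the other the opposite way. The cases were picked for these signs from a search of the 8 genes shown. The search compared MeJA ratios between genotypes and between lights, and genotype ratios with and without MeJA and between lights. The *hy5-1* to *Ler* ratio of *CML38* was above 0 with MeJA and below 0 without it in both lights, a difference of 1.68 between the mean log2 ratios. AT1G76640 had the same signs and a difference of 1.68. The genotype ratio of *CML42* was 0.07 under FR light and 0.57 in darkness with MeJA, against -0.35 and -0.13 without it, a difference of 0.56 (adjusted p = 0.835 in limma for the difference of its MeJA ratios between genotypes, which is the same quantity). The MeJA ratio of *CML37* was positive under FR light and negative in darkness, a difference of 0.68 (adjusted p = 0.671 in limma). None of these differences passed its test. Genotype ratios above 0 with MeJA and below 0 without it in both lights were found for 6.20% of all probe sets. The share of all probe sets with opposite signs between FR light and darkness, as for *CML37*, was not counted.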

How the results depend on the processing

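Quantile normalization and median scaling left each of 64 single ratios of the 8 genes on its side of 2-fold. Both turned the sign of 3 ratios close to 0, those of *CML30* in *hy5-1* under FR light, of *CML41* in dark-grown *Ler* and of *CML42* in dark-grown *hy5-1*. The largest shift was 0.64, for AT1G76640 in dark-grown *hy5-1* after quantile normalization. The count of 9 ratios at 2-fold among the 56 of the 7 genes became 20 at 1.5-fold, where 36.2% of all ratios passed, 4 at 3-fold, where 12.2% passed, and 14 with AT1G76640 included by its synonym. In limma 1 of the 7 genes passed for MeJA under both scalings and with a variance trend, and 0 passed with any 1 pair left out, where 0 to 34 of all probe sets passed. Leaving out pairs took no count above 0 for genotype. The pairs in the models are conditions that differ in 1 factor. The labels give no replicate numbers that could serve as a further block. Signal over background is not known for centred values.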
